A study of Mus musculus with 352 samples.

Results

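Daily rhythms of gene expression were compared between tibialis anterior muscle of mice with Bmal1 restored in brain and skeletal muscle and that of wild-type mice at 26 weeks of age. The members were all libraries of these genotypes at that age under ad libitum feeding, 46 of the 352 libraries in the series. They comprised 22 wild-type mice (WT, 11 females and 11 males) and 24 mice with both tissues restored (RE-RE, 13 females and 11 males). All were C57BL/6. RE-RE mice carried Bmal1(stopFL/stopFL), a floxed stop cassette in both copies of Bmal1 (gene symbol Arntl), together with Syt10-Cre(-/tg) and Hsa-Cre(-/tg). Each Cre removes the cassette only where its promoter is active, Syt10 in neurons that include the central clock of the brain and human skeletal actin (Hsa) in skeletal muscle fibres, so other tissues and the other cell types of the muscle kept the cassette unless one of these promoters is active there. Whole muscle was taken every 4 h at 6 zeitgeber times (ZT, where ZT0 is lights on), with 4 RE-RE mice at each time and 4 WT mice at each time except ZT8 and ZT20, which had 3. Each library was 1 mouse, and the series text calls the mice of a time point biological replicates. Values are log2 FPKM, the log2 of fragments per kilobase of gene and mega-fragment of library, and estimated depth was 14.8 to 25.1 M reads in WT (M, mega; median 19.65) and 18.4 to 30.4 M in RE-RE (median 22.2). Fast-fibre markers such as Ckm and Myh4 were high in every library (log2 of the summed FPKM of the 11 listed genes 15.88 to 16.37 in WT and 15.79 to 16.76 in RE-RE), as the tissue label requires. Fitted residuals were largest in RE-RE replicate 1 (ZT0; root mean square 0.59 log2) and WT replicate 19 (ZT16; 0.51), and the slow-fibre genes of the former lay 2.33 log2 below their fit (residual -2.33).

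In the circadian clock, BMAL1 and CLOCK bind E-box DNA and switch on the Per, Cry and Rev-erb (Nr1d1, Nr1d2) genes. PER and CRY proteins then block BMAL1 and CLOCK, and the REV-ERB proteins repress Bmal1 and Nfil3 through sites that the ROR activators share. DBP and TEF activate, and NFIL3 represses, genes through D-boxes. The muscle clock is set by the brain clock through feeding, activity, hormones and temperature, and its targets include genes of fuel use and protein turnover.

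A rhythm was measured as a 24 h cosine curve fitted to a gene's log2 values, giving an amplitude (mean to peak, in log2 units) and a peak time. The amplitude cannot be negative, so a gene without rhythm also gets a small one (median 0.09 in WT and 0.11 in RE-RE over all genes). It was called at an adjusted p (Benjamini-Hochberg over 9862 genes) under 0.05. Because the deposited values had been centred in library sets (see the levels at the end), rhythms, which such a shift leaves alone, come first. Values of the groups set side by side at 1 time, in text and figures, are not free of it and keep the limit of levels. Core clock genes cycled in both groups. In WT 103 genes (1.04% of those tested) and in RE-RE 75 genes (0.76%) were called rhythmic, and 32 genes (0.324%) were called in both, 31.1% of the WT genes and 42.7% of the RE-RE genes. Of the 16 tested genes of the core clock lists, 9 were called in WT, 8 in RE-RE and 6 in both, namely Arntl, Nr1d1, Dbp, Per1, Per2 and Per3. In 5 of these 6 genes the fitted peak was earlier in RE-RE, and the median difference was -1.87 h. Over all 16 tested core clock genes, rhythmic or not, it was -0.93 h, with 10 earlier and 6 later in RE-RE. No clock gene passed the test of the rhythm difference itself, an F test (limma) of the cosine and sine terms between groups, whose adjusted p was 0.999 for each of the 16. That test called 1 gene of 9862 (0.0101%), Tspan4. The test takes amplitude and peak time together, so a p of the rhythm difference given below is not one of the peak time alone.

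Sequence is shown for 3 of the genes called in both groups with a clock-linked motif in RefSeq's window at the gene start (GRCm38.p6). D-box genes came first, then those of largest amplitude with an E-box. Stretches whose motif lay within an annotated exon were dropped. Motifs were counted over the whole window, which runs past the gene start, while the stretches printed end before it. Capitals mark E-boxes (CACGTG), D-boxes (TTATGTAA, or its reverse complement) and REV-ERB/ROR elements (AGGTCA, or its reverse complement TGACCT), which were searched on both strands and do not overlap one another in these stretches. Per3 lies at chr4:151044666-151044915, minus strand, Per1 at chr11:69098699-69098947, plus strand, and Gadd45g at chr13:51846425-51846674, plus strand. Bases within annotated exons were left off, and the Per1 stretch lies inside the annotated gene (chr11:69095217-69109960), which has 2 RefSeq starts.
Per3: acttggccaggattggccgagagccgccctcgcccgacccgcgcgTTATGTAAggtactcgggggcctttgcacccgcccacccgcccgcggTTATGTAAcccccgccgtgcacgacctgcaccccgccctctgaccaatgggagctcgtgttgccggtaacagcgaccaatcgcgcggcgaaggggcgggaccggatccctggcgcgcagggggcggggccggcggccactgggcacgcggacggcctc
Per1: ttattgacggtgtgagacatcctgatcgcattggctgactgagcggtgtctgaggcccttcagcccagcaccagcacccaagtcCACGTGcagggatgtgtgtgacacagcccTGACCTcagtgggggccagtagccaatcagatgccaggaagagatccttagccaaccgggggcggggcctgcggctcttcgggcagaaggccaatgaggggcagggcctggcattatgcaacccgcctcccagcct
Gadd45g: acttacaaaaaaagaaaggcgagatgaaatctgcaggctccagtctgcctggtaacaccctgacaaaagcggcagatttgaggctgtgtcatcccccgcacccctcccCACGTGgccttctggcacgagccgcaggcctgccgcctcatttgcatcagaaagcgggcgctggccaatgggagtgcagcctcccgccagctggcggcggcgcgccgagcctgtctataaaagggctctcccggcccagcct
Per3 held the D-box at 2 places, Per1 an E-box and an AGGTCA element, and Gadd45g an E-box. Over all tested genes with a RefSeq window (7425 of 9862), an E-box stood in 11.03%, a D-box in 0.4% and AGGTCA in 12.08%. Among the 27 genes called in both groups that had a window, an E-box stood in 7 (25.93%), a D-box in 2 (7.41%) and AGGTCA in 2 (7.41%). A match is a description of the letters only.

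Bmal1 itself (Arntl, chr7:113207465-113314126, plus strand, GRCm38), the transcription factor that the cassette stops and Cre restores, cycled in both groups. Mean log2 FPKM ran from 1.20 at ZT12 to 3.45 at ZT0 in WT and from 1.39 at ZT12 to 3.42 at ZT0 in RE-RE. The groups overlapped at 5 of the 6 times. How many of all tested genes had a time without overlap was not counted. With so few mice per time, such a separation, here and below, only describes the values. At ZT16 the 4 WT mice stood at 1.91, 1.99, 2.42 and 2.47 and the 4 RE-RE mice at 2.96, 2.97, 3.10 and 3.21, so that every RE-RE value lay above every WT value. The Arntl amplitude was 1.08 ± 0.12 (SE, n = 22) in WT (adjusted p from limma 4.06e-05) and 0.996 ± 0.10 (n = 24) in RE-RE (1.1e-05). Fitted peaks fell at ZT0.23 and ZT22.4, a difference of -1.91 ± 0.61 h whose rhythm test had an unadjusted p of 0.0094. Arntl RNA does not by itself report the cassette, since the fitted level was 3.71 in KO mice, which carry it without Cre, against 2.59 in WT, while its amplitude in KO was 0.08 ± 0.06.

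Clock, the partner of Bmal1, was called in WT (amplitude 0.48 ± 0.07, adjusted p 0.0023) and not in RE-RE (0.29 ± 0.08, adjusted p 0.186). Its RE-RE values lay below all WT values at ZT0 and at ZT8, where WT mice stood at 1.63 to 1.94 and RE-RE mice at 1.23 to 1.48. The rhythm difference of Clock had an unadjusted p of 0.185, so a difference was not shown. Its mean over all mice of a group was 1.51 in WT and 1.29 in RE-RE. The values at ZT0 and ZT8 therefore do not separate level from rhythm. Rora, whose protein raises Bmal1 transcription, was called in neither group (amplitude 0.12 ± 0.09 in WT and 0.28 ± 0.08 in RE-RE).

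**Figure D1:**
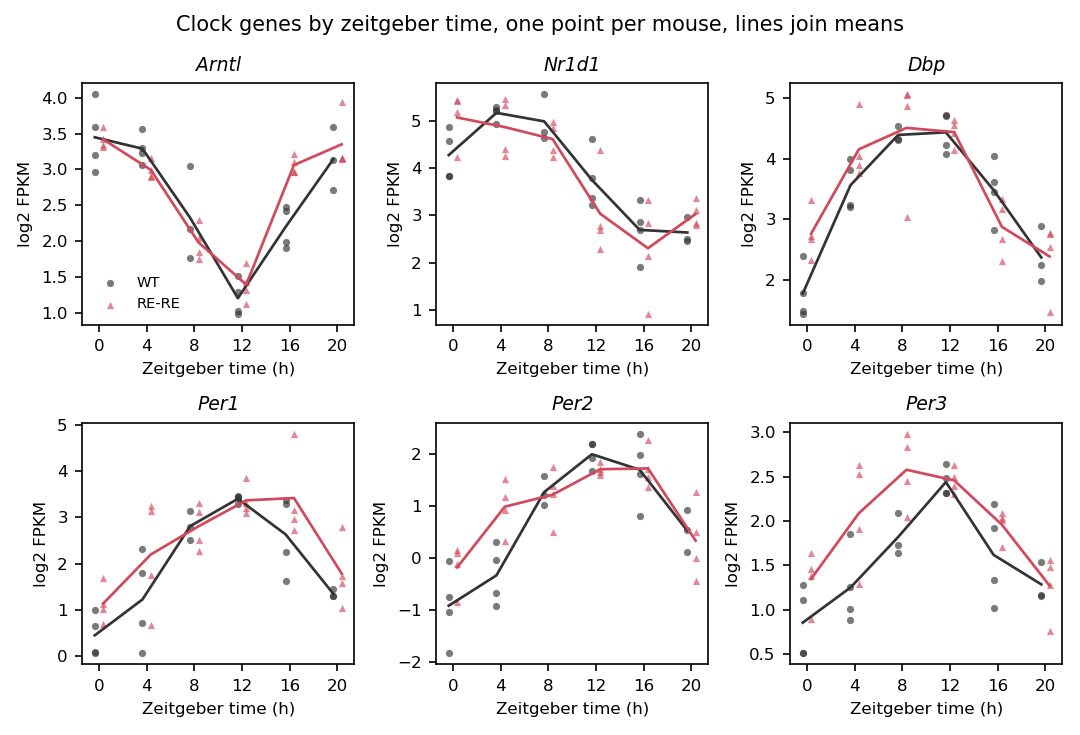
Log2 FPKM of 6 clock genes (y axis) against zeitgeber time in hours (x axis), with 1 point per mouse (dark circles WT, red triangles RE-RE) and lines joining the mean of each time. The RE-RE means of Arntl at ZT16, Per2 at ZT4 and Per3 at ZT4 and ZT8 lie above those of WT, and both groups rise and fall through a full cycle in each gene.

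In the repressor arm Nr1d1 peaked before the Per genes in both groups. Nr1d1, which encodes REV-ERB alpha, a repressor of Bmal1, had its highest mean at ZT4 in WT (5.16) and at ZT0 in RE-RE (5.07), and its lowest at ZT20 in WT (2.64) and ZT16 in RE-RE (2.31). Its groups overlapped at all 6 times. The Nr1d1 amplitude was 1.43 ± 0.11 in WT and 1.48 ± 0.18 in RE-RE, peak-to-trough folds of 7.25 and 7.74 on the fitted scale. The peak difference was -1.93 ± 0.59 h (unadjusted p of the rhythm difference 0.0092). Nr1d2, which encodes its relative REV-ERB beta, was called in RE-RE (0.43 ± 0.08 at ZT9.26, adjusted p 0.018) and had 0.31 ± 0.08 at ZT10.3 in WT (adjusted p 0.194).

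Of the Period genes, whose proteins block BMAL1, Per2 had the larger amplitude difference. Mean Per2 ran from -0.92 at ZT0 to 1.99 at ZT12 in WT and from -0.19 at ZT0 to 1.72 at ZT16 in RE-RE. At ZT4 WT mice stood at -0.93, -0.67, -0.05 and 0.30 and RE-RE mice at 0.32, 0.93, 1.16 and 1.51, without overlap, while the groups overlapped at the other 5 times. The Per2 amplitude was 1.48 ± 0.14 in WT and 0.93 ± 0.14 in RE-RE (peak-to-trough folds 7.77 and 3.62), and the peak difference was -1.19 ± 0.73 h (unadjusted p of the rhythm difference 0.0096).

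Per3, the remaining member of the family, had nearly equal amplitudes, 0.70 ± 0.10 in WT and 0.71 ± 0.10 in RE-RE. Its highest mean came at ZT12 in WT (2.44) and at ZT8 in RE-RE (2.58). The peak difference of Per3 was -2.04 ± 0.82 h (unadjusted p of the rhythm difference 0.0552). The groups of Per3 overlapped at each of the 6 times. Per1, which also answers to glucocorticoid hormone, peaked at ZT11.9 in WT (amplitude 1.47 ± 0.16) and ZT12.2 in RE-RE (1.13 ± 0.21). Its rhythm difference, amplitude included, had an unadjusted p of 0.444. The peak difference of 0.25 ± 0.84 h ran from -0.27 to 0.59 h as single libraries were left out. Per1 was thus the only one of the 6 shared clock genes whose fitted peak was not earlier in RE-RE. At ZT16 Per1 stood between 1.61 and 3.37 in WT and between 2.73 and 4.80 in RE-RE.

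Cry2, whose protein joins PER in blocking BMAL1, was called in WT alone (0.50 ± 0.08 against 0.19 ± 0.10, unadjusted p of the difference 0.040). The 4 WT values at ZT0, 1.29 to 1.76, all lay below the 4 RE-RE values, 2.22 to 2.45. Its relative Cry1 was called in neither group (0.17 ± 0.07 and 0.22 ± 0.05). Bhlhe41, a repressor that competes at E-boxes, had 0.45 ± 0.08 in WT (called) and 0.54 ± 0.12 in RE-RE (adjusted p 0.0722), with peaks at ZT8.67 and ZT5.90. Its relative Bhlhe40 was called in neither group (0.35 and 0.33).

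Nfil3, the D-box repressor that REV-ERB proteins hold down, was called in RE-RE (1.18 ± 0.15, adjusted p 2.00e-04) and not in WT (0.64 ± 0.16, adjusted p 0.130). At ZT8 WT mice stood at 2.34, 2.56 and 3.31 and RE-RE mice at 1.37, 1.49, 2.01 and 2.09. Every RE-RE value of that time was below every WT value, and the groups overlapped at the other 5. The rhythm difference of Nfil3 had an unadjusted p of 0.0509.

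The D-box activator Dbp, a direct product of BMAL1 and CLOCK at its E-boxes, ran from a mean of 1.77 at ZT0 to 4.44 at ZT12 in WT and from 2.38 at ZT20 to 4.51 at ZT8 in RE-RE. The Dbp amplitude was 1.41 ± 0.12 and 1.21 ± 0.15, and the peak difference -1.83 ± 0.61 h (unadjusted p of the rhythm difference 0.0106). Groups overlapped at every time. Tef, the related factor, was called in neither group at nearly equal amplitudes (0.28 ± 0.06 in WT, adjusted p 0.0536, and 0.26 ± 0.06 in RE-RE, adjusted p 0.0682).

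**Figure D2:**
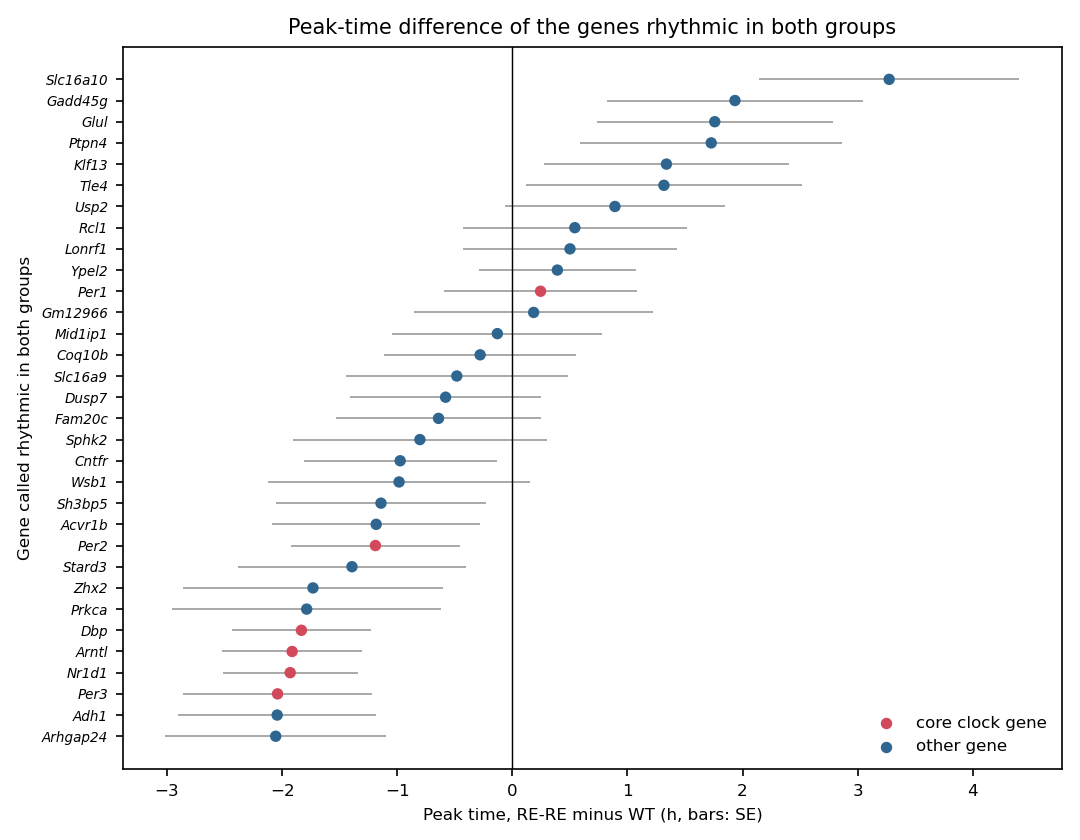
Peak time in RE-RE minus that in WT in hours (x axis; bars are SE) for the 32 genes called rhythmic in both groups (y axis, ordered by the difference), with core clock genes in red. Points left of 0 peaked earlier in RE-RE, which held for 20 of the 32 genes.

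Over the 32 shared genes the peak was earlier in RE-RE in 20 and later in 12, with a median difference of -0.61 h and a range of -2.06 to 3.27 h, and 28 lay within 2 h of the WT peak. Without the clock genes, 26 remained (15 earlier, 11 later) and the median was -0.38 h. Amplitudes were close to equal on balance, with a median ratio of 0.98. These genes were chosen for their rhythm in these same libraries, so the counts describe them and no test is attached. Over all 9862 tested genes, most of them without a called rhythm, 3906 fitted peaks were earlier in RE-RE and 5956 later (median 1.92 h). On an axis set by mice outside the comparison, the peak times of WT mice of the 10-week group (10 to 12 weeks by the labels), no gene passed the test along the peak or off it (limma; with p unadjusted and under 0.05 were 395 and 431 genes, 4.01% and 4.37% of those tested). Off that axis, 303 of the genes with an unadjusted p under 0.05 (3.07%) lay on the earlier side in RE-RE and 128 (1.3%) on the later side. Over all tested genes, whatever their p, 5349 of 9862 lay on the earlier side. Most tested genes were not called rhythmic in the WT mice of the 10-week group, so their side is not a shift of a called peak. Among the 576 genes called rhythmic in those younger WT mice, the rhythm along the young peak time was positive in 539 in WT and in 445 in RE-RE at 26 weeks, with median amplitudes along it of 0.15 and 0.13. Over all 9862 tested genes it was positive in 6718 in WT and in 5414 in RE-RE, so fewer were positive in RE-RE there too.

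Genes outside the clock lists with the largest shared amplitudes were Cntfr, Mid1ip1, Gadd45g, Glul and Adh1. Cntfr, a receptor subunit for ciliary neurotrophic factor, had 0.96 ± 0.14 at ZT16.7 in WT and 1.17 ± 0.17 at ZT15.7 in RE-RE. Mid1ip1, an activator of acetyl-CoA carboxylase, had 0.93 ± 0.12 and 0.85 ± 0.16 with peaks 0.13 h apart (-0.13 ± 0.91 h).

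Glul, which encodes glutamine synthetase and is raised by glucocorticoids, had its fitted peak later in RE-RE. At ZT16 WT mice stood at 5.76, 5.95, 6.49 and 6.59 and RE-RE mice at 6.77, 7.22, 7.76 and 8.85, all of the latter higher. Its amplitude was 0.70 in WT and 1.08 in RE-RE, and its peak differed by 1.76 ± 1.03 h (unadjusted p of the rhythm difference 0.0558). Gadd45g, a growth-arrest and stress gene whose E-box is printed above, behaved likewise at ZT16, with WT mice at 4.13 to 4.73 and RE-RE mice at 5.07 to 6.85. Its peak differed by 1.93 ± 1.11 h (unadjusted p of the rhythm difference 0.163). The highest ZT16 values of Glul and Gadd45g came from 1 mouse, RE-RE replicate 19. Adh1, an alcohol and retinol dehydrogenase, peaked earlier in RE-RE (-2.04 ± 0.86 h, unadjusted p of the rhythm difference 0.0436). Its RE-RE values all exceeded WT at ZT8 (2.64 to 3.21 against 2.06 to 2.57) and all fell below WT at ZT12 (2.98 to 3.54 against 3.68 to 4.00).

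The most delayed shared gene was Slc16a10, an aromatic amino acid transporter, named here after its value was seen. It peaked at ZT2.38 in WT and ZT5.72 in RE-RE, a difference of 3.27 ± 1.13 h (unadjusted p of the rhythm difference 0.0212). At ZT0 its WT mice stood at 3.10 to 3.43 and its RE-RE mice at 2.03 to 2.88.

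The distribution of peak times differed in description. WT genes peaked most often between ZT12 and ZT16 (35 of 103, 34.0%) and between ZT0 and ZT4 (26, 25.2%). RE-RE genes peaked most often between ZT20 and ZT24 (24 of 75, 32%) and between ZT12 and ZT16 (18, 24%). Only 10 of the WT genes (9.71%) peaked between ZT20 and ZT24.

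**Figure D3:**
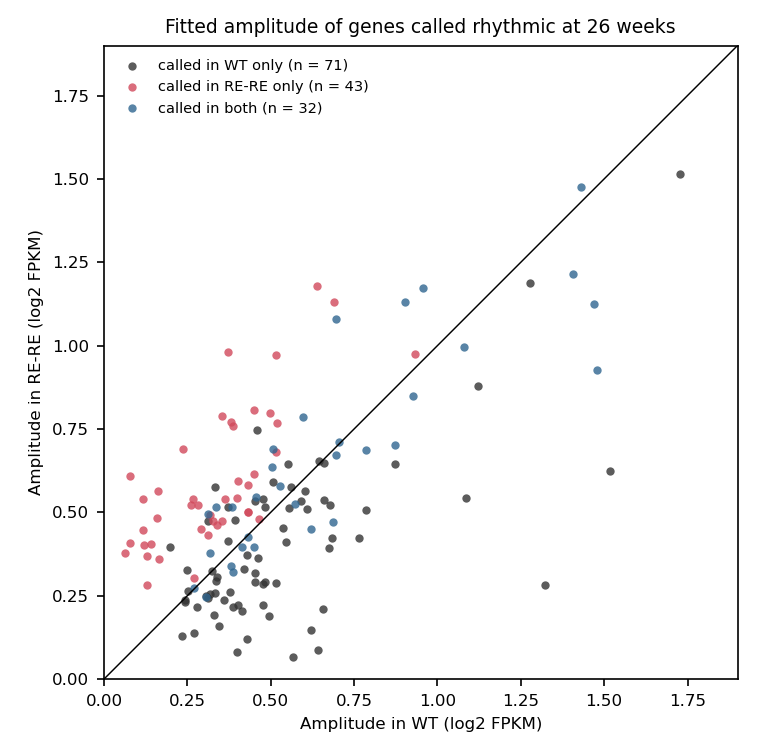
Fitted amplitude in WT (x axis, log2 FPKM) against that in RE-RE (y axis, log2 FPKM) for genes called rhythmic in WT only, in RE-RE only or in both; the line marks equal amplitude. The 71 genes called in WT only lie mostly below the line and the 43 called in RE-RE only above it, which their choice favours.

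A call in one group only was mostly not a shown difference. Of the 71 genes called in WT alone, 49 had an unadjusted rhythm p under 0.05 in RE-RE and 13 an unadjusted p under 0.05 for the difference. Of the 43 called in RE-RE alone, 25 had an unadjusted rhythm p under 0.05 in WT and 14 for the difference. Over all tested genes, 356 (3.61%) had an unadjusted p of the rhythm difference under 0.05.

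The largest amplitudes called in WT alone were those of Arrdc2, Spon2, Junb, Pfkfb3 and Pnpla3. Arrdc2, an arrestin-domain gene, had 1.73 ± 0.17 in WT and 1.51 ± 0.40 in RE-RE with peaks 0.05 h apart, and its RE-RE mice at ZT4 spread from 1.18 to 5.82. Pfkfb3, which makes the activator of the glycolytic enzyme phosphofructokinase, had 1.28 ± 0.18 and 1.19 ± 0.26, and Pnpla3, a lipid-droplet hydrolase, 1.12 ± 0.12 and 0.88 ± 0.20. For these 3 genes the unadjusted p of the difference was 0.899, 0.952 and 0.343, and the SE in RE-RE was the larger one. The adjusted rhythm p in RE-RE was 0.171 for Arrdc2, 0.0722 for Pfkfb3 and 0.0792 for Pnpla3. Spon2, a secreted matrix protein, had 1.52 ± 0.30 and 0.62 ± 0.19 (unadjusted p 0.0291), at low levels that reached -5.99 log2 FPKM in 1 WT mouse at ZT12.

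The largest amplitudes called in RE-RE alone were those of Nfil3, Rgs2, Gm13889, Cep85l and Tnfrsf12a. Rgs2, a brake on G-protein signals, had 1.13 ± 0.11 in RE-RE and 0.69 ± 0.18 in WT, with RE-RE mice at ZT8 at -0.02 to 0.26 and WT mice at 0.62 to 1.02. Tnfrsf12a, the receptor for the cytokine TWEAK, had 0.97 ± 0.18 and 0.51 ± 0.27. At ZT8 1 of the 3 WT mice stood at 7.79 and the others at 3.58 and 3.98. Cep85l, a centrosomal protein gene, had 0.97 ± 0.19 and 0.93 ± 0.20 and missed the call in WT at an adjusted p of 0.0581. Gm13889 had 0.98 ± 0.14 in RE-RE and 0.37 ± 0.27 in WT.

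Tspan4, which encodes a membrane-organising tetraspanin, was the 1 gene whose rhythm differed between the groups (limma F test, adjusted p 0.036). Mean Tspan4 rose in WT from 1.36 at ZT0 to 2.36 at ZT12 and 2.32 at ZT16, and stayed between 1.54 and 1.83 in RE-RE. At ZT16 WT mice stood at 1.93, 2.28, 2.32 and 2.73 and RE-RE mice at 1.38, 1.45, 1.69 and 1.92, and at ZT12 WT mice at 1.80, 2.43, 2.59 and 2.62 and RE-RE mice at 1.64, 1.72, 1.73 and 1.78. At both times every RE-RE value was below every WT value, and the groups overlapped at the other 4. The amplitude was 0.57 ± 0.06 in WT (peak ZT14.1) and 0.07 ± 0.06 in RE-RE, where no rhythm was called (adjusted p 0.83). The call was lost (adjusted p 0.0525 to 0.1195) on leaving out any of 21 of the 46 libraries, namely WT replicates 1, 2, 5, 6, 7, 8, 15, 16, 19 and 20 and RE-RE replicates 1, 2, 4, 6, 7, 13, 14, 15, 18, 19 and 20. It was also lost without the sex term (0.0834), with separate means of the 6 times in place of the cosine (0.119) and without the pair of most variable libraries (0.118). At 10 weeks the RE-RE amplitude of Tspan4 was 0.14 against 0.57 in WT, and the difference there had an adjusted p of 0.127.

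**Figure D4:**
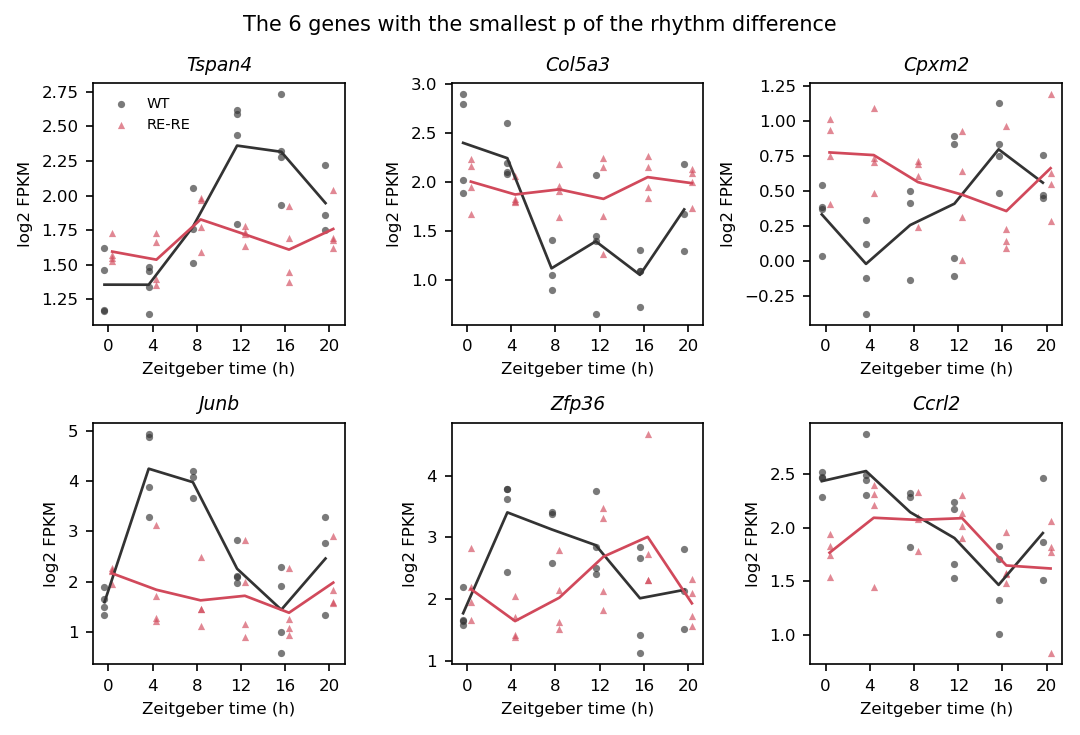
Log2 FPKM (y axis) against zeitgeber time in hours (x axis) for the 6 genes with the smallest p of the rhythm difference, with 1 point per mouse (dark circles WT, red triangles RE-RE) and lines joining means. Of these only Tspan4 passed the adjusted threshold, and its WT means exceed 2.3 at ZT12 and ZT16 while its RE-RE means stay below 1.9.

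The next 9 genes by p did not pass (adjusted p 0.895 for Col5a3 and 0.999 for the rest). Col5a3, a fibrillar collagen chain, had an amplitude of 0.64 ± 0.11 in WT and 0.09 ± 0.07 in RE-RE, and Cpxm2, a carboxypeptidase-like secreted protein, 0.33 ± 0.08 and 0.20 ± 0.09. Junb, an immediate early transcription factor, had 1.32 ± 0.27 in WT and 0.28 ± 0.18 in RE-RE (unadjusted p 9.1e-04). At ZT4 its WT mice stood at 3.29, 3.88, 4.88 and 4.94 and its RE-RE mice at 1.23, 1.28, 1.72 and 3.13. At ZT8 the WT mice stood at 3.66 to 4.19 and the RE-RE mice at 1.11 to 2.49. At both times all RE-RE values were lower.

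Zfp36, which speeds the decay of inflammatory mRNAs, had its highest mean at ZT4 in WT (3.40) and at ZT16 in RE-RE (3.01), where 1 RE-RE mouse stood at 4.67 and the other 3 at 2.31 to 2.73. Ccrl2, an atypical chemokine receptor, had 0.48 ± 0.07 and 0.28 ± 0.09, Pde4b, a cyclic AMP phosphodiesterase, 0.40 ± 0.07 and 0.08 ± 0.08, and Ccn1, a matrix signalling protein, 0.29 ± 0.13 and 0.43 ± 0.13. Bag3, a co-chaperone of muscle, had 0.16 ± 0.09 in WT and 0.35 ± 0.09 in RE-RE, and Tpra1, a membrane protein, 0.16 ± 0.10 and 0.48 ± 0.09, the latter called rhythmic in RE-RE.

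Among the 10 tested immediate early genes, which respond to stimulation within minutes, 4 had an unadjusted p of the rhythm difference under 0.05 (3.61% of all genes), none passed adjustment, 1 was called rhythmic in WT (Junb) and 1 in RE-RE (Jun). Those 4 were Junb, Ier2, Btg2 and Jun, of which Jun is named after its value was seen. Ier2 had 0.84 ± 0.20 in WT and 0.14 ± 0.18 in RE-RE (unadjusted p 0.0046). Btg2 had 0.70 ± 0.26 peaking at ZT6.67 in WT and 0.52 ± 0.19 at ZT16.4 in RE-RE (unadjusted p 0.0029). Egr1 had 1.52 ± 0.43 and 0.17 ± 0.37 (unadjusted p 0.055). The immediate early genes moved together between mice and are not independent of each other. Their mean residual from the fit ran from -1.07 log2 in WT replicate 16 to 1.48 in WT replicate 20.

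Of the 12 tested genes named for clock control in muscle or other tissues, 7 were called in WT and 3 in RE-RE (1.04% and 0.76% of all genes were). Usp2, a deubiquitinase that acts on clock proteins, was called in both (0.69 ± 0.09 at ZT12.4 and 0.47 ± 0.10 at ZT13.3). Its RE-RE call was lost in 17 of 46 fits that left out 1 library (adjusted p up to 0.107) and with no filter on low values (0.0627), and its peak difference of 0.89 ± 0.95 h became -0.55 h with library weights. Leo1, a subunit of the PAF1 elongation complex, had 0.37 ± 0.06 in WT (called) and 0.41 ± 0.10 in RE-RE (adjusted p 0.0828), with peaks at ZT3.18 and ZT1.22. The list held Tspan4 and Pnpla3 as well, and was drawn up with earlier results of these data known.

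Of the 18 glucocorticoid-responsive genes, 4 were called in WT and 3 in RE-RE, and 9 and 12 had an unadjusted rhythm p under 0.05 (7.15% and 11% of all genes). Their median amplitude was 0.32 in WT and 0.64 in RE-RE, beside 0.09 and 0.11 over all genes. Tsc22d3, the glucocorticoid-induced leucine zipper, had 0.33 ± 0.07 at ZT15.6 and 0.58 ± 0.13 at ZT15.3. Cebpb, a transcription factor of the stress and fat programmes, had 0.87 ± 0.15 at ZT16.3 and 0.65 ± 0.21 at ZT18.9. At ZT16 Cebpb stood at 5.06 in RE-RE replicate 19, against 3.52 at most in the other RE-RE mice of that time. Glul was also highest in that mouse (8.85). The weight of that mouse in the median amplitude of the list was not tested. In this list 1 gene had an unadjusted p of the rhythm difference under 0.05.

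Of the 28 glucose uptake and glycolysis genes, 1 was called in WT (Pfkfb3) and 0 in RE-RE by limma, with 5 and 7 at an unadjusted p under 0.05, beside 1.04% and 0.76% called and 7.15% and 11% at that unadjusted p over all genes. Ppp1r3c, which directs glycogen synthesis, had 0.60 ± 0.16 and 0.68 ± 0.16, and Pfkfb4, a relative of Pfkfb3, 0.25 ± 0.06 and 0.35 ± 0.08 with peaks at ZT13.9 in both. Of the 28 fatty acid uptake and oxidation genes, 0 were called in either group by limma, with 1 at an unadjusted p under 0.05 in each. Of the 15 lipid and sterol synthesis genes, 1 was called in WT, Insig1, a brake on sterol synthesis (0.33 ± 0.06 against 0.19 ± 0.07 in RE-RE), and 0 in RE-RE, with 3 at an unadjusted p under 0.05 in each. Of the 20 respiratory chain genes, 0 had an unadjusted rhythm p under 0.05 in either group.

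Of the 21 atrophy and autophagy genes, 0 were called in WT by limma (2 at an unadjusted p under 0.05) and 2 in RE-RE (7), where all genes had 1.04% and 0.76% called and 7.15% and 11% at an unadjusted p under 0.05. The WT share at that p was thus near that of all genes. At ZT16, RE-RE replicate 19 stood at 3.70 for Foxo1 and 7.03 for Fbxo32, against 2.09 and 5.71 at most in the other RE-RE mice of that time. For Becn1 it stood at 2.81, against 2.79 at most. These genes are named after their values were seen. The part of that mouse in the RE-RE share was not tested. The genes called in RE-RE included Mstn, the myostatin gene that restrains muscle growth (0.54 in RE-RE at ZT12.1), named after its value was seen. Of the 12 heat and cold responsive genes, 0 were called in WT (1 at an unadjusted p under 0.05) and 1 in RE-RE (4), Hspb1, a small chaperone gene named after its value was seen, to be read against the same shares of all genes. Of the 9 amino acid and stress response genes, 0 were called in either group, with 1 and 0 at an unadjusted p under 0.05.

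Of the 5 red blood cell genes, 4 (Hba-a1, Hbb-bs, Hbb-bt and Alas2) had an unadjusted p of the rhythm difference under 0.05, against 3.61% of all genes, and none passed adjustment. Hbb-bs, a beta-globin gene, had 0.58 ± 0.15 peaking at ZT0.40 in WT and 0.21 ± 0.16 at ZT14.8 in RE-RE (unadjusted p 0.0070). The 3 globin genes among them are near-identical to neighbouring copies, so reads may be split between copies, and the 4 genes share one source in blood left in the tissue and are not independent of each other. The summed level of the list ran from 6.49 to 8.89 log2 in WT and from 6.53 to 8.71 in RE-RE. Its part in other rhythms was not tested.

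Restoring Bmal1 in a single tissue gives a reference for these amplitudes, from mice of the same age. KO mice (24, Bmal1(stopFL/stopFL), Cre(-/-)) and Mu-RE mice (24, the cassette with Hsa-Cre alone) had amplitudes of 0.06 to 0.37 and 0.04 to 0.39 in the 6 shared clock genes, with adjusted p from limma of 0.839 to 0.999 and of 0.371 to 0.946. Br-RE mice (22, the cassette with Syt10-Cre alone) split by gene. Their amplitude was 1.19 ± 0.18 for Per1 (adjusted p 0.0073), 0.73 ± 0.11 for Per3 (0.0057) and 0.64 ± 0.14 for Per2 (0.0663), but 0.14 ± 0.06 for Arntl, 0.12 ± 0.08 for Dbp and 0.38 ± 0.12 for Nr1d1. In RE-RE all 6 were called, but this was fixed by their choice as genes called in both WT and RE-RE. Adh1 had 0.98 ± 0.14 in Br-RE (adjusted p 0.0035), 0.12 in Mu-RE and 0.14 in KO. Differences between these genotypes and RE-RE were not tested here.

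**Figure D5:**
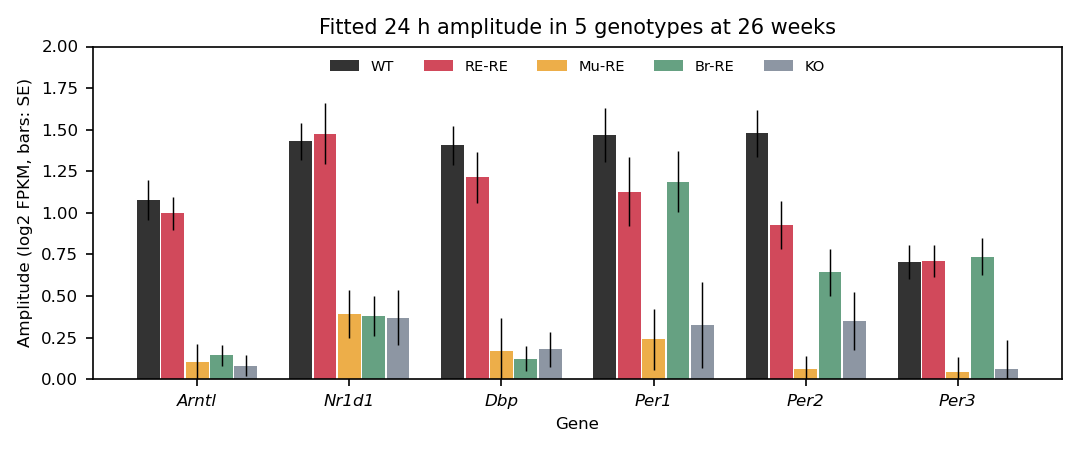
Fitted 24 h amplitude (y axis, log2 FPKM; bars are SE) of 6 clock genes (x axis) in 5 genotypes at 26 weeks. WT and RE-RE bars are between 0.70 and 1.48, KO and Mu-RE bars below 0.40, and Br-RE is high for the Per genes only. The 6 genes were chosen for a rhythm call in both WT and RE-RE.

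The comparison was repeated in the 47 WT and RE-RE mice of the 10-week group through the test of the difference between ages. No gene passed it (limma), and 297 genes (3.01%) had an unadjusted p under 0.05. Arntl was among the latter. Its peak difference was 0.37 ± 0.44 h at 10 weeks against -1.91 ± 0.61 h at 26 weeks (unadjusted p of the age term 0.0049). The 10-week peak differences of the other shared clock genes were -0.89 h for Nr1d1, -0.48 h for Dbp, -1.50 h for Per1, -1.10 h for Per2 and -0.49 h for Per3. Nfil3 had amplitudes of 1.099 in WT and 0.76 in RE-RE at 10 weeks, the reverse order of 26 weeks (unadjusted p of the age term 0.0167).

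Levels, the 24 h means, carry a caveat of centring. In the deposited table the libraries of RE-RE and Br-RE at 26 weeks (46 together) had, in every gene, the same mean as the other 140 libraries of that age to within 8.7e-06 log2, so a shift shared by Br-RE and RE-RE is absent from these values and its size cannot be told. With that limit, 744 of 9862 genes differed in level, 317 higher (3.21%) and 427 lower (4.33%) in RE-RE. A contrast that such a shift leaves alone, RE-RE minus Br-RE set against WT minus KO, is another quantity. It is given as a second value for Ak4, Ces1d and Gm24187 only. The levels of the other genes and the counts by list below are given without it and keep the limit of centring.

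The largest higher levels in RE-RE were those of Gm11734, Ak4, Spon2, Ces1d and Insl3. Ak4, a mitochondrial adenylate kinase, had a mean of -0.04 in WT and 1.596 in RE-RE (difference 1.64 ± 0.16, adjusted p 1.38e-09; 1.65 in the contrast without centring). Ces1d, a carboxylesterase of fat stores, had 3.85 and 5.21 (1.36 ± 0.17, adjusted p 3.57e-07), but 0.92 ± 0.42 in the contrast without centring, where its call was lost (adjusted p 0.178). Gm11734 was 1.64 ± 0.16 higher, Spon2 1.42 ± 0.27 and Insl3, a relaxin-family peptide hormone, 1.36 ± 0.36. Insl3 was near the floor of the values in WT replicates 1 (-6.16) and 5 (-6.20), which lowered its WT mean. Its medians lay closer, -0.66 in WT and 0.10 in RE-RE, and those of Spon2 were -1.09 and -0.01.

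The largest lower levels were those of Fos, Gm24187, Ighm, Sbk2 and mt-Ts2. Fos, an immediate early factor, had 2.40 in WT and 0.64 in RE-RE (-1.76 ± 0.47, adjusted p 0.015). Single mice ran from -1.115 to 6.17 in WT and from -1.47 to 4.09 in RE-RE. Ighm, an immunoglobulin heavy chain of B cells, had 4.16 and 2.61 (-1.56 ± 0.23, adjusted p 9.43e-06), and Sbk2, a protein kinase gene, 4.90 and 3.41 (-1.49 ± 0.16, adjusted p 6.04e-09). The gene Gm24187, annotated as a miRNA (-1.74 ± 0.46), lost its call in the contrast without centring (-0.94 ± 0.92, adjusted p 0.572), and the mitochondrial tRNA mt-Ts2 had -1.33 ± 0.28.

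By list, 4 of 10 immediate early genes were lower in level in RE-RE (4.33% of all genes were) and 0 higher, with a list median of -0.58 beside -0.004 over all genes. These genes moved together between mice, so the count is not one of independent genes. Of 15 lipid and sterol synthesis genes, 4 were higher (3.21% of all) and 0 lower, the fatty acid synthesis genes Fasn, Acly, Scd1 and Elovl5, of which Scd1 rose by 1.33 ± 0.28 (adjusted p 0.0017) and the other 3 are named after their values were seen. Of the clock repressors, 1 was higher, Per3 (0.41 ± 0.10, adjusted p 0.0119), and 0 lower.

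Markers of other cells moved with the level comparison. Of the 6 tested macrophage and lymphoid markers 5 were lower (4.33% of all genes were), including C1qa (-0.74 ± 0.17), C1qb (-0.65 ± 0.15) and C1qc (-0.87 ± 0.19), and the summed level of the list ran from 4.46 to 6.01 log2 in WT (median 5.46) and from 3.95 to 5.44 in RE-RE (median 4.82). Of the 7 tested fibroblast and matrix markers 3 were lower (4.33% of all genes), including Dpt (-0.88 ± 0.12) and Lum (-0.71 ± 0.19), and 0 higher. The list median was -0.10, and Col1a2 (-0.10 ± 0.20) and Fbn1 (0.23 ± 0.14) did not pass. The list had a summed level of 6.02 to 8.00 (median 7.05) against 5.70 to 7.42 (median 6.56). In whole muscle, fewer cells of a type and less RNA per cell cannot be told apart. Of the 5 tested slow-fibre markers 2 were higher (3.21% of all genes), Myl2 (0.91 ± 0.22) and Tnnc1 (0.91 ± 0.25), while Myl3 (-0.30 ± 0.20) and Atp2a2 (0.21 ± 0.13) did not pass. The summed level of all 8 listed slow-fibre genes had nearly equal medians, 6.18 in WT and 6.24 in RE-RE, with lowest values of 5.198 and 3.49. Of the 6 listed adipocyte markers 2 passed the filter on low values and 0 of these the level test, by limma, with Cfd at 0.93 ± 0.33 (adjusted p 0.068) and Fabp4 at 0.19 ± 0.10 (adjusted p 0.231). The summed level of the 6 was 4.75 to 6.36 in WT (median 5.599) and 4.85 to 6.62 in RE-RE (median 5.94), and its part in the lipid synthesis levels was not tested. In the rhythm test none of the macrophage, fibroblast, slow-fibre, fast-fibre, nerve, tendon, endothelial or adipocyte markers had an unadjusted p of the difference under 0.05. Of the satellite cell list, 1 gene of 4 was tested, Sdc4, a syndecan, which was called rhythmic in RE-RE (0.52 ± 0.11) and not in WT (0.26 ± 0.08), with an unadjusted p of the difference of 0.0133. The part of these cells in other level differences was not tested.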

How the data were processed

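The authors deposited log2 FPKM values of 14413 genes in 352 libraries, in 1 table whose columns carry the sample titles. An offset of 0.01 FPKM was taken to have been added before the log. After the centring described below, the lowest values of a gene need not equal log2 of 0.01. Per the submitters' processing notes, reads were checked (FastQC 0.11.8), trimmed (Trim Galore 0.5.0) and handled with HISAT2 (2.1.0) on GRCm38, and featureCounts (1.6.2), edgeR (3.30.0) and limma (3.44.1) are also named. Strand handling and the choice of genes are not given in the sources used here. In every gene, females and males had equal means within RE-RE and Br-RE at 26 weeks taken as one set (to 9.5e-06) and within the 259 libraries of other genotypes (to 9.6e-06). These equalities and that of the set means point to a centring step. An additive shift per set leaves cosine and sine terms unchanged but not levels, and sexes were not compared.

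Depth was estimated from the whole-read steps of low values, using GENCODE M21 exon lengths. In each library of the 46, at least 93.0% of the low values used lay within 0.1 of a whole read. Correlation across genes between libraries of the same group was 0.92 to 0.98, and no pair lay closer than 0.33 log2 (root mean square), so none was a copy of another.

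Genes with a mean of at least 0 log2 (1 FPKM) over all libraries were tested, 9862 in all. Models used limma 3.58.1 (trend and robust options) in R 4.3.3, with a level, a 24 h cosine and sine per group and a sex term, fitted per group for rhythms, on both groups for differences and on 4 groups for the age term. Errors on amplitudes and peak times are delta-method SE. P values were adjusted by Benjamini-Hochberg over the tested genes, at 0.05. All tests were two-sided.

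The comparison, gene lists and tests were chosen with earlier results of these data known. Genes were named by rule: the core clock lists, the 10 smallest p of the rhythm difference, the 10 largest amplitudes called in both groups, the 5 largest called in each group only, the 5 largest level differences each way, and up to 4 genes of each other list by rhythm p in WT. Promoter windows came from RefSeq (GRCm38.p6), for 7425 tested genes. Alternatives were other filters and pseudocounts, no sex term, a sex by genotype term, equal library medians, a gene length slope, variance from 5 genotypes, free means per time, library weights, a replicate block and leaving out each library. The code was tested on simulated data. A few named results are not reported here.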

Additional observations from a re-analysis of the deposited data

Results flagged for a closer look

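Among 200 sets of 4 mice of one group and time, examined for the 20 genes whose values are given by mouse, 13 held 1 library that stood apart from the other 3 by Dixon's 95% criterion; chance alone flags about 1 set in 20. In RE-RE replicate 21 (ZT20), Arntl stood at 3.94, against 3.14 to 3.17 in the other 3 mice, and Dbp at 1.47, against 2.55 to 2.77. Dbp in RE-RE replicate 9 (ZT8) stood at 3.04, against 4.88 to 5.06. Clock stood at 1.15 in WT replicate 13 (ZT12), against 0.76 to 0.81, and at 2.07 in RE-RE replicate 6 (ZT4), against 1.46 to 1.54. Cry2 stood at 3.25 in RE-RE replicate 19 (ZT16), against 2.24 to 2.37. Nfil3 stood at 4.01 in WT replicate 2 (ZT0), against 2.95 to 3.07, and at 1.7 in WT replicate 16 (ZT12), against 2.81 to 2.99. Junb stood at 2.84 in WT replicate 14 (ZT12), against 1.98 to 2.12, and at 1.95 in RE-RE replicate 4 (ZT0), against 2.22 to 2.26. Zfp36 stood at 2.2 in WT replicate 3 (ZT0), against 1.57 to 1.67, and at 2.43 in WT replicate 7 (ZT4), against 3.61 to 3.79. Slc16a10 stood at 3.17 in RE-RE replicate 8 (ZT4), against 2.71 to 2.75.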

How the results depend on the processing

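No called difference changed direction, though the peak differences of Usp2 and Per1, genes called in both groups, changed sign (Usp2 with library weights, Per1 from -0.27 to 0.59 h as single libraries were left out). The number of genes differing in rhythm, 1 as reported, was 2 with no filter on low values, 0 without the sex term, 4 with library weights and 0 without RE-RE replicate 1 and WT replicate 19, an alternative chosen after seeing the data. Genes differing along the young peak time numbered 1 with no filter and 1 with library weights, against 0. Genes rhythmic in WT, 103, numbered 66 with free means per time and 232 with library weights. Those in RE-RE, 75, numbered 117 with a gene length slope and 429 with library weights, and level differences, 744, numbered 2622 with library weights. The cause of these shifts was not tested. In the contrast that centring leaves alone, also added after seeing the data, 715 genes passed.

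Leaving out 1 library at a time gave 79 to 116 rhythmic genes in WT, 57 to 136 in RE-RE (136 without RE-RE replicate 5), 0 to 2 differing in rhythm (2 without WT replicate 14, where Col5a3 joined Tspan4 at an adjusted p of 0.0386), 0 to 1 along the young peak time (1 without WT replicate 14 and 1 without RE-RE replicate 15), 0 off it, 533 to 1176 in level (1176 without RE-RE replicate 1) and 0 for the age term. Peak differences ranged from -2.14 to -1.57 h for Arntl, -2.15 to -1.74 h for Nr1d1, -2.05 to -1.56 h for Dbp, -2.47 to -1.71 h for Per3 and -1.47 to -0.84 h for Per2. With library weights that of Per3 was -2.88 h and that of Usp2 -0.55 h, against 0.89 h as reported. Calls of single genes also turned on 1 library: Junb in WT was lost in 14 of 46 fits (adjusted p up to 0.101), Usp2 in RE-RE in 17 (up to 0.107), Gadd45g in WT in 6 (up to 0.0631) and in RE-RE without replicate 3 (0.05001), Cep85l in RE-RE in 6, Tpra1 in RE-RE in 5, Spon2 in WT in 3, Nr1d2 without RE-RE replicate 21 (0.0536) and Tnfrsf12a without RE-RE replicate 16 (0.0511). In RE-RE, Arrdc2, Bhlhe41 and Leo1 were called without replicate 5 (0.0352, 0.0126 and 0.00775), Pfkfb3 in 5 fits and Pnpla3 in 3.

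The replicate numbers in the titles do not pair the mice. Same-numbered mice of the groups had correlated deviations of -0.38 to 0.29 (median -0.03, 22 pairs, 2 over 0.1), and 2 of 22 correlated best with their own number. With a replicate block, 0 genes differed in rhythm (Tspan4 adjusted p 0.853), 420 differed in level and Fos lost its call (0.0757). A difference of a few hours in peak time is near the 4 h spacing of the samples, and with 3 or 4 mice per time the SE of a peak difference among shared genes was 0.59 h at the least.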
